A study of Homo sapiens with 10 samples.

Results

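The 10 integrin genes ITGAV, ITGB1, ITGB3, ITGB4, ITGB5, ITGB6, ITGB8, ITGA2, ITGA3 and ITGA6 were followed through the 8 H3K27ac ChIP-seq peak lists of the study. They are 10 of 19618 protein-coding genes on chromosomes 1 to 22 and X. Each member was taken as its GENCODE gene body with 50 kb on each side (its window, hg38), and ITGAV ties the set to the study. SKBR3 and MDA-MB-453 are established human HER2 breast cancer cell lines. Each line contributed 2 untreated libraries and 2 libraries of cells given TWEAK, the ligand of the Fn14 receptor, at 10 ng/ml for 48 h with a second dose at 24 h. All cells were seeded in 10% FBS and starved in optimem for 8 h, and no agent or allele set the groups apart other than TWEAK. The labels number the 2 libraries of a group but do not tie them to separate cultures, so p-values measure only the spread between these libraries, which may be technical.

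Integrins are cell surface receptors built of 1 α and 1 β chain, and they join the extracellular matrix to the cytoskeleton and to focal adhesion signalling. The αv chain, from ITGAV, pairs with the chains of ITGB1, ITGB3, ITGB5, ITGB6 and ITGB8 in receptors for vitronectin, fibronectin and latent TGF-β. The chains of ITGA2, ITGA3 and ITGA6 pair with the β1 chain as receptors for collagen and laminins, and that of ITGA6 also pairs with the β4 chain of ITGB4 in hemidesmosomes. H3K27ac marks active promoters and enhancers. A peak shows where the mark passed the caller's threshold, and not how much receptor a cell carried.

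The lists held 43684 to 51687 peaks in SKBR3 and 36148 to 37813 in MDA-MB-453. Between 58 and 78 of the peaks in a list lay in the 10 windows, and merged over the 8 lists they made 101 of 76044 regions. Of these, 29 (28.7%) were in all 8 lists, against 23.3% of all regions. Peaks lay at the transcription start site (TSS) of 9 of 10 breast epithelial marker genes in every SKBR3 list and of 10 of 10 in every MDA-MB-453 list, ERBB2 among them. Of 5 fibroblast, 3 endothelial and 5 leukocyte markers, COL1A1, CDH5 and CD68 had a TSS peak in every list, and the others, PECAM1, PTPRC, LUM and DCN among them, had one in none. Peaks at a TSS are those within 1 kb, and their strength is given as a percentile, the place of the authors' peak score among all peaks of the same list.

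Sequence is shown first for the places where the mark differed. In the regions that appeared or strengthened with TWEAK, matches to the AP-1 motif (TGACTCA or TGAGTCA, which are each other's reverse strand) and to the NF-κB consensus, named here without its letters, were searched on both strands. Each match is given in capitals with 25 bases on either side, on the plus strand of hg38. Sites are named after the window they lie in. The ITGAV sites lie at -45.5, -46.2, -46.0 and -17.1 kb from the 5′ end of the gene. The last is 1 of 5 AP-1 matches in its region and was chosen because it lies in bases that peaks covered in both SKBR3 TWEAK lists and neither untreated list. The other ITGAV sites shown do not lie in such bases. Both ITGB8 sites, at -1.03 and 22.4 kb, lie in such bases. The ITGAV site at -17.14 kb lies just beside a peak of SKBR3 untreated replicate 1, which spans -17.11 to -16.86 kb.
ITGAV NF-κB, chr2:186544520-186544579: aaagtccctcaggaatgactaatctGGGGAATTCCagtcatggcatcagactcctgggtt
ITGAV AP-1, chr2:186543827-186543883: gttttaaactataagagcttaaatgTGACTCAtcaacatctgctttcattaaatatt
ITGAV AP-1, chr2:186544028-186544084: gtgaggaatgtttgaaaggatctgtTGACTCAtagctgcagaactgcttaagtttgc
ITGAV AP-1, chr2:186572845-186572901: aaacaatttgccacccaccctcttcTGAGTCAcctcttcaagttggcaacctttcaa
ITGB8 NF-κB, chr7:20329643-20329702: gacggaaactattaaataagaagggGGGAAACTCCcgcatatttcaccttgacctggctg
ITGB8 AP-1, chr7:20353088-20353144: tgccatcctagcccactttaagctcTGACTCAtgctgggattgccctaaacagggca

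The ITGB8 NF-κB match overlaps a second one, shifted by 1 base and read on the other strand. The gained regions in the windows of ITGB1 and ITGB6 held neither motif. The region of the ITGA2 window that was lost with TWEAK in MDA-MB-453 (chr5:53037327-53039074) held an AP-1 match, at 48.4 kb. Such matches are common. In the 1000 bp around the midpoint of each region, the NF-κB consensus was found in 19 of the 101 regions of the integrin windows (18.8%, 95% Wilson interval 12.4 to 27.5%) and in 13.8% of all regions. AP-1 was found in 25 of the 101 (24.8%, 17.4 to 34%) and in 23% of all regions. The intervals hold the shares of all regions, and cover counting error only.

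The second set is the 150 bases before the 5′ end of the gene for ITGAV and for 5 of the members whose highest ranked TSS peak differed between the lines, in the direction of transcription. For ITGB5 that peak lies at another start, between 44.96 and 68.81 kb inside the gene, and not beside the stretch shown. Capitals mark GC boxes (GGGCGG or its reverse strand CCGCCC), a motif in the same stretch of 43.6% of all protein-coding genes. ITGB5 and ITGA3 have 2 each and ITGA2 has 3. ITGAV, ITGB6 and ITGA6 have none, and no stretch shown holds an AP-1 or NF-κB match, which 2.3% and 3.42% of all genes have there. The stretch of ITGA2 has 75.3% G and C, and that of ITGB6 has 36%.
ITGAV upstream: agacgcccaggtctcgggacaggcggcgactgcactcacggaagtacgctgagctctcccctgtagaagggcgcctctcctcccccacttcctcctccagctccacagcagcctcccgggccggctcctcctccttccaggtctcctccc
ITGB5 upstream: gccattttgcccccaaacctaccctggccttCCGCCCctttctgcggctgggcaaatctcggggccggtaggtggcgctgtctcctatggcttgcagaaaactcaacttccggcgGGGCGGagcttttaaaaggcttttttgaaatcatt
ITGB6 upstream: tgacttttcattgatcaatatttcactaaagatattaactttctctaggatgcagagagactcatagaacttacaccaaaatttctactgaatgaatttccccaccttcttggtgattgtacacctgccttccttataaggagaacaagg
ITGA2 upstream: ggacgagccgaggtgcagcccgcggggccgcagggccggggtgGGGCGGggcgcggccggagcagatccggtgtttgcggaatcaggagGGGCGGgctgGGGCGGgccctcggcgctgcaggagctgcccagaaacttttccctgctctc
ITGA3 upstream: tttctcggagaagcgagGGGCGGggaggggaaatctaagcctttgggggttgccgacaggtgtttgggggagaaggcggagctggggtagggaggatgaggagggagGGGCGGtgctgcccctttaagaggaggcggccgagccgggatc
ITGA6 upstream: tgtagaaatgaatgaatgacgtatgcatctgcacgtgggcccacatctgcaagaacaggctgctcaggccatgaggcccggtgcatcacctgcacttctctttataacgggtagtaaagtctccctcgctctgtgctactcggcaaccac

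Between the lines, 8 of the 10 integrin windows differed in the length that peaks covered. The fit was limma on log2(covered kb + 1) over 18229 windows with at least 1 peak, and windows are called at a Benjamini-Hochberg adjusted p under 0.05. ITGAV, ITGB4, ITGB5, ITGB6 and ITGB8 were covered further in SKBR3, and ITGB1, ITGA2 and ITGA6 further in MDA-MB-453. ITGB3 and ITGA3 did not pass. Over all windows 73.3% were called, 46.7% higher and 26.6% lower in SKBR3, so 8 of 10 is near the background. The median difference was 0.49 over the members and 0.22 over all windows. SKBR3 lists were longer, and when every list was scaled to the same covered length the median over all windows moved from 0.22 to -0.13, and the calls from 8510 higher and 4849 lower to 5894 higher and 7852 lower. On that scale ITGB6 (0.12) and ITGB8 (0.10) were no longer called, ITGA3 was called lower in SKBR3 (-0.33), and ITGAV, ITGB4, ITGB5, ITGB1, ITGA2 and ITGA6 kept their direction and their call. In the comparisons of TWEAK, 3 of 10 windows were called in SKBR3, ITGAV and ITGB8 higher and ITGA6 lower, against 1.73% of all windows (1.55% higher, 0.176% lower). That background is itself unsteady, with 315 windows called in all and between 16, without MDA-MB-453 TWEAK replicate 1, and 1601, without SKBR3 TWEAK replicate 1. In MDA-MB-453 no member and none of the 18229 windows was called by limma, with 375 windows at an unadjusted p under 0.05, and none by the exact permutation test, whose smallest p is 0.333 there.

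**Figure D1:**
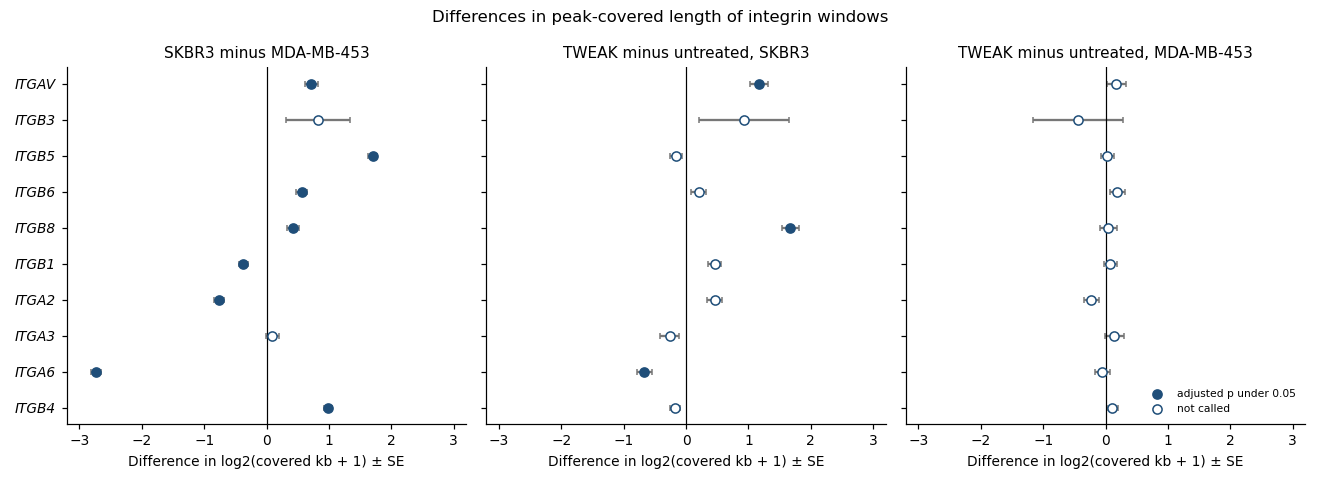
Differences in log2(covered kb + 1) of the 10 integrin windows between the lines (left) and with TWEAK in SKBR3 (middle) and MDA-MB-453 (right), with the limma standard error as bars. Filled points passed an adjusted p of 0.05: 8 windows on the left, 3 in the middle and 0 on the right.

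**Figure D2:**
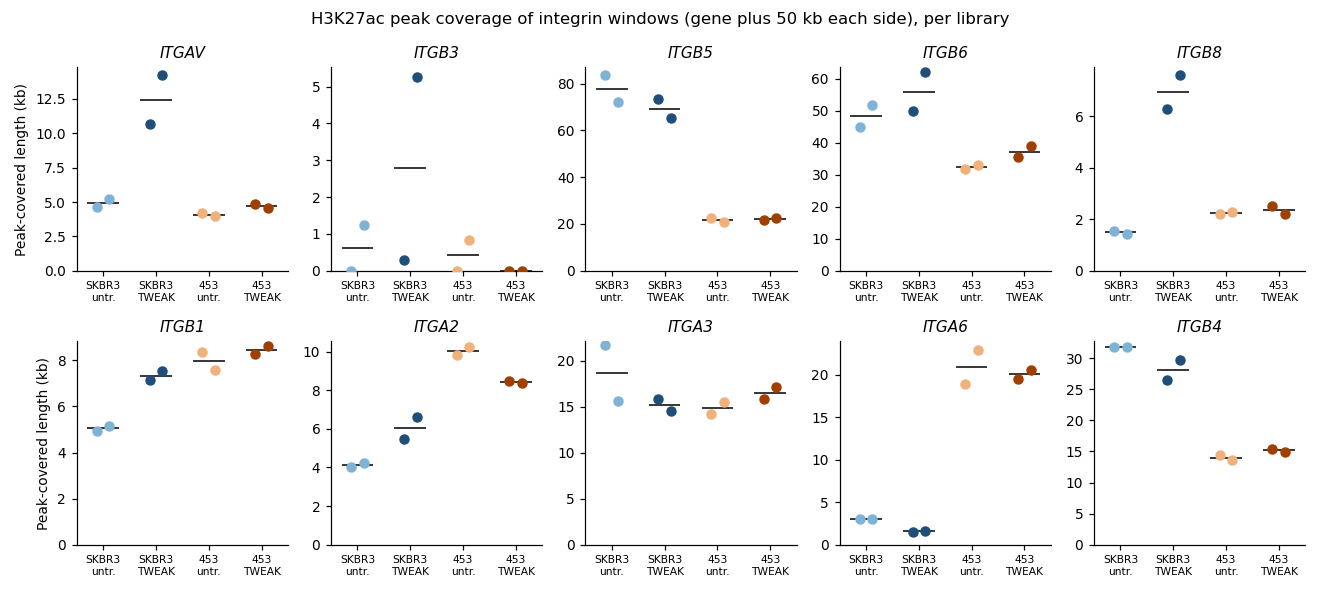
Length covered by H3K27ac peaks (kb) in each integrin window, 1 point per library and the group mean as a line, with a vertical axis of its own in every panel starting at 0. The ITGAV and ITGB8 points of SKBR3 TWEAK libraries sit above all others of the gene, at 10.6 and 14.3 kb and at 6.28 and 7.58 kb.

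ITGAV (chr2:186590010-186680901, plus strand), the αv chain itself, had the more widely covered window after TWEAK in SKBR3. Peaks covered 4.64 and 5.23 kb in the untreated SKBR3 libraries and 10.6 and 14.3 kb in the TWEAK libraries. In MDA-MB-453 they covered 4.22 and 3.96 kb untreated and 4.86 and 4.60 kb with TWEAK. In both lines the TWEAK libraries lay above the untreated ones. The TWEAK mean was 2.52 times the untreated mean in SKBR3 cells, and 1.16 times in MDA-MB-453. In the limma fit the SKBR3 difference was 1.17 ± 0.15 (SE) on the log2(kb + 1) scale (adjusted p = 0.0201) and the MDA-MB-453 difference 0.17 ± 0.15 (adjusted p = 1). The difference between these, 1.00 ± 0.21, did not pass (adjusted p = 0.201). Leaving out either SKBR3 untreated library or any MDA-MB-453 library ended the SKBR3 call (adjusted p between 0.0809 and 0.106), and leaving out SKBR3 TWEAK replicate 1 or 2 did not (0.00591 and 0.0468).

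The added coverage lay before the gene and not in it. With the gene body alone as the window, the SKBR3 difference with TWEAK was 0.02 ± 0.25 (adjusted p = 1). The first place was an intergenic region at -45.3 kb from the 5′ end of the gene (chr2:186543003-186546374), described because of its values. The TSS of ZC3H15 was nearer to it, at 37.98 kb, and which gene this region acts on was not tested. Its peak stood at percentiles 33.9 and 6.62 in the untreated SKBR3 libraries and at 79.1 and 93.7 in the TWEAK libraries, and its width went from 1.10 and 0.866 kb to 3.04 and 3.37 kb. Of the MDA-MB-453 lists only TWEAK replicate 1 held it, at percentile 16.5. A limma fit over the 30803 regions in all 4 SKBR3 lists, added after these values were seen, gave a difference of 66.2 ± 11.6 percentile points (adjusted p = 0.138), and that fit called no region at all (2561 had an unadjusted p under 0.05). The other place, at -17.1 kb (chr2:186568848-186576894), was seen in SKBR3 alone, in each of its 4 lists. Peaks covered 1.21 and 2.69 kb of it untreated and 6.20 and 8.05 kb with TWEAK, while their percentiles, 68.8 and 44.7 against 65.1 and 75.1, overlapped between the groups. Base by base, 4.89 kb of the ITGAV window was covered in both SKBR3 TWEAK lists and neither untreated list, and 0 kb the other way round.

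At the ITGAV promoter the peak ranked much alike in every library, while its width differed between the lines. The TSS peak stood at percentiles 82.4 and 83.0 in untreated and 81.3 and 83.2 in TWEAK-treated SKBR3 cells, and at 79.9 and 86.0, and 80.7 and 88.2, in MDA-MB-453. The line difference was -1.24 ± 2.27 percentile points (adjusted p = 0.654) and the SKBR3 TWEAK difference -0.44 ± 3.2 (adjusted p = 0.984). The peak was narrower in SKBR3, at 1.33 to 2.01 kb against 2.48 to 3.29 kb, with no overlap and a difference of -0.88 ± 0.15 in log2 width (adjusted p = 0.00425). A region 12.3 kb into the gene (chr2:186601522-186603032), overlapping an annotated exon, was in all 4 MDA-MB-453 lists at percentiles 49.7 to 54.2 and in no SKBR3 list. The line difference in covered length of the whole window, 0.72 ± 0.11 higher in SKBR3 (adjusted p = 0.000577), was 0.22 ± 0.15 among untreated libraries (adjusted p = 0.24) and 1.22 ± 0.15 among TWEAK libraries (adjusted p = 0.000326). Of all windows, 63.1% were called in the former (40.7% higher and 22.4% lower in SKBR3) and 63.6% in the latter (42.5% and 21.1%). The line difference of the window turned over without the flanks, with the ITGAV gene body covered less in SKBR3 (-0.91 ± 0.17, adjusted p = 0.00656). Under the stricter peak threshold it was not called (limma adjusted p = 0.383), and the exact permutation test gave p = 0.0571 for it.

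Of 9906 other genes with a TSS peak in all 8 lists, FBXO5, POGK and MTDH had percentiles closest to those of ITGAV, with a root mean square difference over the 8 lists of 2.25, 2.30 and 2.32 percentile points. The median over all these genes was 12.2.

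**Figure D3:**
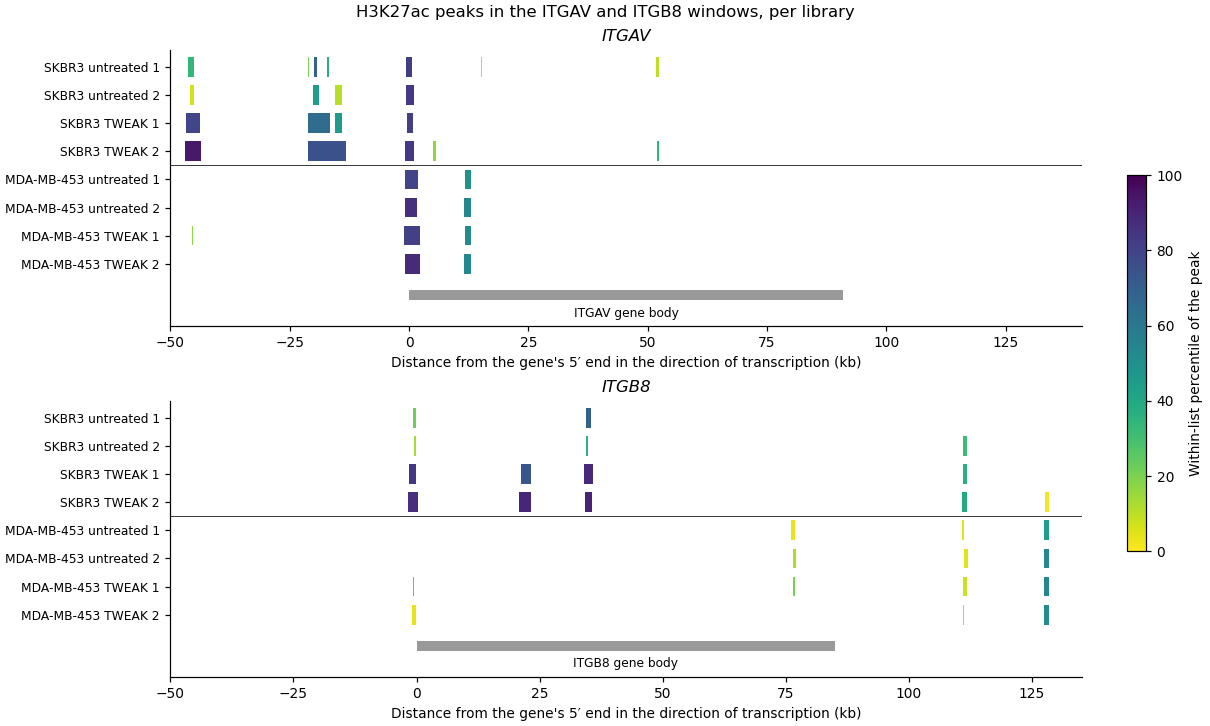
Peaks of the 8 lists in the windows of ITGAV and ITGB8, 1 row per library, by distance in kb from the 5′ end of the gene, with the colour giving the percentile of the peak in its list and the grey bar the gene body. In the SKBR3 TWEAK rows the ITGAV peaks before the gene are wider than in the untreated rows, and the ITGB8 peak about 22.03 kb into the gene is in both TWEAK rows alone.

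ITGB8 (chr7:20330702-20415754, plus strand) encodes the β8 chain, whose αvβ8 receptor binds latent TGF-β. Its window was covered over 1.56 and 1.42 kb in untreated SKBR3 cells and over 6.28 and 7.58 kb after TWEAK, a ratio of means of 4.66. In MDA-MB-453 it was covered over 2.19 and 2.30 kb untreated and 2.51 and 2.20 kb with TWEAK. The SKBR3 groups were far apart and the MDA-MB-453 groups overlapped. By limma the SKBR3 difference was 1.67 ± 0.13 (adjusted p = 0.00817) and the MDA-MB-453 difference 0.05 ± 0.13 (adjusted p = 1). The call held without any 1 library (adjusted p between 0.00235 and 0.0487) and missed with the gene body alone (0.0528). The difference between the lines in the response was 1.62 ± 0.19 (adjusted p = 0.107). It passed with a smaller pseudocount of 0.1 kb (0.0351), with windows without peaks kept in the fit (0.048) and without SKBR3 TWEAK replicate 1 (0.00822).

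Most of the added ITGB8 coverage lay in 3 regions at or in the gene. The TSS peak (chr7:20328994-20330916) stood at percentiles 22.4 and 13.0 in untreated SKBR3 cells and at 83.6 and 86.3 after TWEAK, and its width went from 0.523 and 0.396 kb to 1.57 and 1.92 kb. The added region fit gave 67.3 ± 9.15 percentile points for it (unadjusted p = 7.45e-05, adjusted p = 0.112). In MDA-MB-453 neither untreated list held a peak there and both TWEAK lists did, at the low percentiles 26.2 and 3.88 (chr7:20329775-20330611), so it counted as gained in that line. A region 22.03 kb into the gene (chr7:20351534-20353930), which overlaps an annotated exon and holds the AP-1 site shown above, was in both SKBR3 TWEAK lists at percentiles 73.1 and 89.4 and in none of the other 6 lists. Another, 34.99 kb into the gene (chr7:20364783-20366606), was found in SKBR3 alone, in its 4 lists, at percentiles 68.8 and 35.9 untreated and 88.8 and 90.1 with TWEAK. Past the gene, a region at 111.3 kb (chr7:20441400-20442561) was covered over 0 and 0.717 kb in untreated and 0.849 and 1.06 kb in TWEAK-treated SKBR3 cells, and one at 127.9 kb (chr7:20458058-20459234) over 0.702 kb in TWEAK replicate 2 alone of the SKBR3 lists. Base by base, 3.68 kb of the window was covered in both SKBR3 TWEAK lists and neither untreated list. Averaged over treatment the ITGB8 window was covered further in SKBR3 (0.43 ± 0.10, adjusted p = 0.00472), a call that the replicate block (0.0621) and scaled lists (0.31) ended and that the exact permutation test did not give (p = 0.429). Among untreated libraries alone it was covered less in SKBR3 (-0.38 ± 0.13, adjusted p = 0.0401), and among TWEAK libraries more (1.24 ± 0.13, adjusted p = 0.000172).

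ITGB5 (chr3:124761948-124901418, minus strand), whose β5 chain makes the vitronectin receptor αvβ5, had the largest difference in favour of SKBR3 among the members. Peaks covered 83.7, 72.0, 73.6 and 65.1 kb of its window in the SKBR3 libraries (untreated 1 and 2, then TWEAK 1 and 2) and 20.8 to 22.5 kb in the MDA-MB-453 libraries. That is 30.7% ± 3.2 (SD, n = 4) of the window in SKBR3 against 9.14% ± 0.33, and the SKBR3 share is above that of 94.7% of all windows. The difference was 1.70 ± 0.07 (adjusted p = 9.44e-07), and the exact permutation test gave p = 0.0286, the smallest it can give with 4 against 4. The window is shared with KALRN, MUC13 and UMPS. Of 19 regions in it 9 were in all 8 lists and 2 in the SKBR3 lists alone. Those 2 overlapped an exon of UMPS (chr3:124748447-124750770, percentiles 14.9 to 62.4) and an exon of ITGB5 (chr3:124858453-124863881, 69.4 to 73.7). Its highest ranked TSS peak lay in a region at annotated starts inside the gene (chr3:124832450-124856454), and stood at percentiles 80.4 to 87.9 in SKBR3 and 75.6 to 78.9 in MDA-MB-453 (difference 7.13 ± 2.19, adjusted p = 0.0207), and it was wider in SKBR3 by 2.16 ± 0.25 on the log2 scale (adjusted p = 0.00104). The peak at the 5′ end itself (chr3:124900683-124901557) stood at 49.8, 44.7, 62.4 and 27.8 in SKBR3 and at 40.2 to 54.4 in MDA-MB-453, so the lines overlapped there. Leaving out 1 library ended the percentile call of the highest ranked TSS peak in 4 of 8 cases (adjusted p up to 0.0752). Over all 14 alternatives the call of that peak was lost in 7 (limma adjusted p up to 0.522). With TWEAK in SKBR3 that peak was 10.8 and 9.58 kb wide, against 23.6 and 22.5 kb untreated, and the width difference of -1.18 ± 0.36 did not pass (adjusted p = 0.325). The stretch called as 1 wide peak in the untreated lists was called as separate peaks in the TWEAK lists, and the region as a whole was covered over 23.6, 22.8, 22.3 and 21.1 kb in the 4 libraries (log2 difference -0.10 ± 0.07, adjusted p = 0.853).

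ITGB6 (chr2:160099667-160200313, minus strand), which gives the epithelial αvβ6 receptor its β chain, was widely covered in both lines. Peaks covered 45.0 and 51.8 kb in untreated and 49.96 and 62.1 kb in TWEAK-treated SKBR3 cells, and 32.0 and 33.2 kb, then 35.4 and 39.0 kb, in MDA-MB-453. Every SKBR3 library lay above every MDA-MB-453 library, with a difference of 0.56 ± 0.08 (adjusted p = 0.000598), and the share of the window covered ranked above 92.1% and 93.7% of all windows in the respective lines. The TSS peak stood at percentiles 85.4 and 88.5 untreated and 92.5 and 98.6 with TWEAK in SKBR3, and at 77.2 and 80.7, then 76.7 and 74.3, in MDA-MB-453. The line difference was 14.0 ± 1.96 percentile points (adjusted p = 0.000446). The SKBR3 TWEAK difference, 8.66 ± 2.77, did not pass (adjusted p = 0.302). Of 16 regions, 3 were in the 4 SKBR3 lists alone, at percentiles up to 86.0. Of them 2 lay in introns (chr2:160102098-160103823 and chr2:160180307-160182619) and 1 before the gene (chr2:160214299-160215748). A small intergenic region past the 3′ end (chr2:160091679-160092109) was gained in SKBR3 at percentiles 16.4 and 50.9. One in an intron (chr2:160109867-160110583) was gained in MDA-MB-453 at 15.3 and 8.43, where all 4 SKBR3 lists also had peaks.

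ITGB3 (chr17:47253827-47313743, plus strand), for the β3 chain of platelets and osteoclasts, was the one member with no TSS peak in any list. Peaks covered 0 and 1.23 kb in untreated and 0.304 and 5.26 kb in TWEAK-treated SKBR3 cells, and 0 and 0.846 kb, then 0 and 0 kb, in MDA-MB-453. The groups overlapped, and neither the line difference (0.83 ± 0.51, adjusted p = 0.179) nor the SKBR3 TWEAK difference (0.94 ± 0.72, adjusted p = 0.619) passed. None of its 6 regions was in all 8 lists.

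ITGB1 (chr10:32887273-33005792, minus strand) encodes the common β1 partner. Its TSS peak, 47.5 kb inside the annotated 5′ end of the gene, was high in every list, at percentiles 80.9 to 88.0 in SKBR3 and 79.8 to 85.9 in MDA-MB-453 (difference 1.03 ± 2.07, adjusted p = 0.683). Peaks covered 4.95 and 5.17 kb of the window in untreated and 7.13 and 7.54 kb in TWEAK-treated SKBR3 cells, and 7.58 to 8.64 kb in MDA-MB-453. The window was covered less in SKBR3 (-0.37 ± 0.08, adjusted p = 0.00282), a direction that turned under the stricter peak threshold (0.12, adjusted p = 0.305). The SKBR3 TWEAK groups did not overlap, but the difference of 0.46 ± 0.11 did not pass (adjusted p = 0.0978). The gained region in SKBR3 (chr10:32997982-32998784, intron) stood at percentiles 38.7 and 35.8. The region at the annotated 5′ end itself (chr10:33004441-33007698) was in all 8 lists, at percentiles 88.6 to 97.7 in SKBR3 and 15.3 to 33.7 in MDA-MB-453, and this line difference was not tested. A region at an exon (chr10:32928790-32930608) was in the 4 MDA-MB-453 lists alone, at percentiles 79.0 to 83.5, and so was one in an intron (chr10:32950246-32951418) at 35.8 to 36.6.

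ITGA2 (chr5:52989340-53094779, plus strand), the α chain of the collagen receptor α2β1, was marked more in MDA-MB-453. Peaks covered 4.02 and 4.22 kb in untreated and 5.49 and 6.61 kb in TWEAK-treated SKBR3 cells, and 9.83 and 10.2 kb, then 8.46 and 8.40 kb, in MDA-MB-453. No library of one line reached those of the other, and the difference was -0.77 ± 0.08 (adjusted p = 9.9e-05). The TSS peak stood at percentiles 40.6, 30.5, 35.2 and 60.5 in SKBR3 and at 69.4 to 76.1 in MDA-MB-453, and it was 31.0 percentile points lower in SKBR3 (-31.0 ± 5.56, adjusted p = 0.00163) and narrower (-0.94 ± 0.09 in log2 width, adjusted p = 0.000445). The SKBR3 TWEAK difference in coverage, 0.46 ± 0.12, did not pass (adjusted p = 0.126) except without SKBR3 TWEAK replicate 1 (0.0271). A region 42.0 kb into the gene (chr5:53029844-53032871) stood at percentiles 67.5 to 76.5 in MDA-MB-453, and in SKBR3 only TWEAK replicate 2 held it, at 17.0. The 1 region lost in MDA-MB-453, in an intron (chr5:53037327-53039074), had percentiles of 8.70 and 12.3 in the untreated lists. All 4 SKBR3 lists had peaks there, at percentiles 25.2 to 66.5.

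ITGA3 (chr17:50055968-50090481, plus strand) gives the α chain of the laminin receptor α3β1. No line difference in its coverage passed the test, with 21.7, 15.6, 15.9 and 14.5 kb in the SKBR3 libraries and 14.2, 15.5, 15.8 and 17.1 kb in the MDA-MB-453 libraries (difference 0.09 ± 0.11, adjusted p = 0.453). By limma, 4 of 16 other settings called it higher in SKBR3, the replicate block among them (0.29, adjusted p = 0.049). Only 1, the scaled lists, called it lower (-0.33, adjusted p = 0.0235). The TSS peak ranked lower in SKBR3, at percentiles 80.2 to 80.6 against 91.1 to 92.4 (-11.3 ± 1.21, adjusted p = 0.000114), a difference that was -1.43 ± 1.61 (adjusted p = 0.464) when peaks were ranked by fold enrichment. A region 56.2 kb from its 5′ end, at PDK2 and SAMD14 (chr17:50111059-50113275), was in the SKBR3 lists alone at percentiles 6.62 to 58.7.

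ITGA6 and ITGB4, whose chains pair in hemidesmosomes as the laminin receptor α6β4, differed between the lines in opposite directions. For ITGA6 (chr2:172427354-172506459, plus strand) peaks covered 3.03 and 3.08 kb in untreated and 1.49 and 1.63 kb in TWEAK-treated SKBR3 cells, and 18.9 and 22.9 kb, then 19.5 and 20.6 kb, in MDA-MB-453. The MDA-MB-453 mean was 8.88 times that of SKBR3 (-2.73 ± 0.09, adjusted p = 4.37e-07), the largest line difference among the members. No SKBR3 list had a peak at the ITGA6 TSS, and all 4 MDA-MB-453 lists did, at percentiles 58.5 and 50.8 untreated and 45.1 and 43.9 with TWEAK. Of 11 regions, 6 were in the MDA-MB-453 lists alone. The 4 of highest mean percentile lay 36.0 kb into the gene (chr2:172460132-172466574, percentiles 76.4 to 85.1), 28.1 kb in (chr2:172453824-172457083, 68.5 to 75.4), at the promoter (chr2:172427120-172432352, 43.9 to 58.5) and 11.7 kb in (chr2:172438115-172439950, 34.7 to 46.6). The 2 regions in all 8 lists lay 119 and 128 kb from the 5′ end, the latter at the promoter of PDK1.

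The SKBR3 TWEAK difference at ITGA6 fell by 0.67 ± 0.12 on the log2(kb + 1) scale (adjusted p = 0.0497). The call was lost without any 1 library (adjusted p between 0.0596 and 0.174) and with lists of equal size (0.136), and turned over under the stricter threshold (0.51 ± 0.35, adjusted p = 0.584). The coverage in question was mainly 1 lost region in an intron (chr2:172448070-172449160), which the untreated SKBR3 lists held at percentiles 16.6 and 43.99 and which overlapped peaks in all MDA-MB-453 lists.

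**Figure D4:**
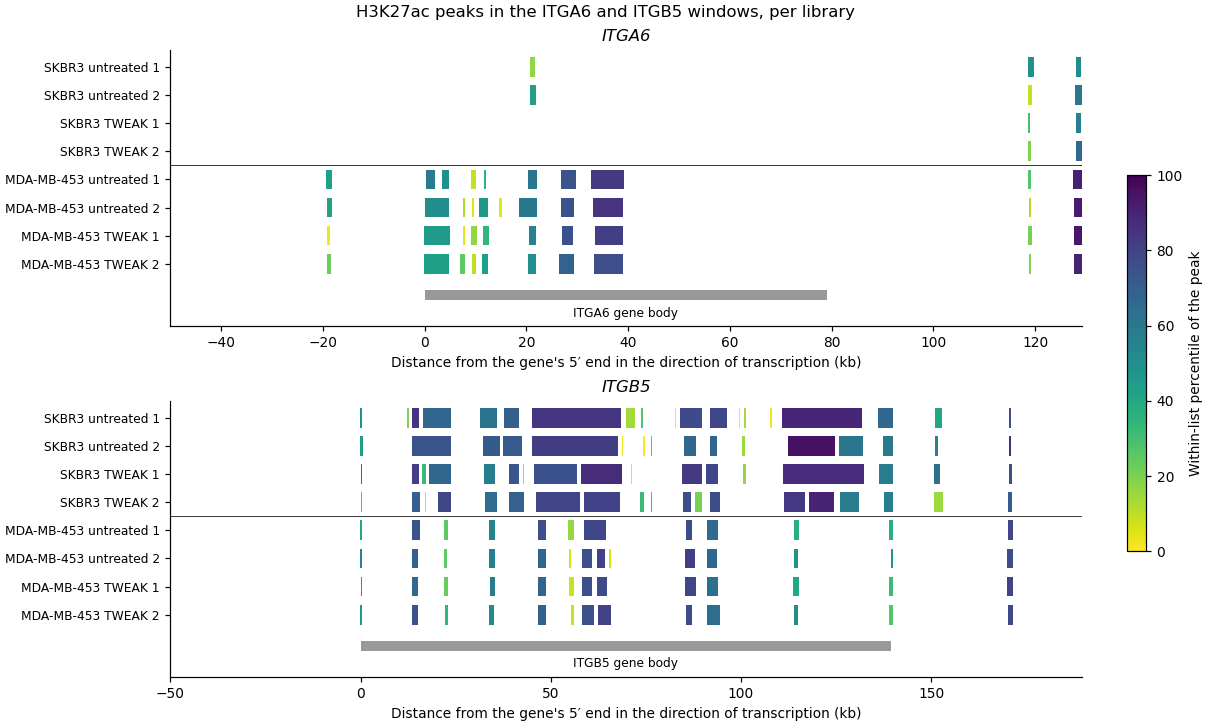
Peaks in the windows of ITGA6 and ITGB5, drawn as for ITGAV. The ITGA6 gene body holds peaks in all MDA-MB-453 rows, and in SKBR3 only 1 in each untreated row. ITGB5 holds wide peaks in the SKBR3 rows and narrower ones at many of the same places in MDA-MB-453.

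For ITGB4 (chr17:75721328-75757818, plus strand) peaks covered 31.8 and 31.7 kb in untreated and 26.4 and 29.7 kb in TWEAK-treated SKBR3 cells, and 13.6 to 15.4 kb in MDA-MB-453, which was 0.99 ± 0.06 higher in SKBR3 (adjusted p = 5.93e-06). The TSS peak stood at percentiles 67.2, 75.2, 66.2 and 75.1 in SKBR3 and at 15.0, 7.71, 12.5 and 26.1 in MDA-MB-453. Its line difference of 55.6 ± 5.25 percentile points (adjusted p = 6.42e-05) was the largest of the 7 members in that fit, and its peak was also wider in SKBR3 (1.42 ± 0.17 in log2 width, adjusted p = 0.00105). Its window is shared with GALK1, H3-3B, SAP30BP and UNK. Of the 3 regions in the SKBR3 lists alone, those at SAP30BP (chr17:75686781-75690889, percentiles 75.8 to 86.6) and UNK (chr17:75804780-75811765, 89.9 to 94.2) lay in these neighbours, and the one at an annotated start near the 3′ end of ITGB4, where GALK1 overlaps (chr17:75755501-75757402), ranked at 26.3 to 56.8. The region lost in SKBR3 lay in an intron of GALK1 (chr17:75759770-75760226) at percentiles 1.57 and 6.62.

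**Figure D5:**
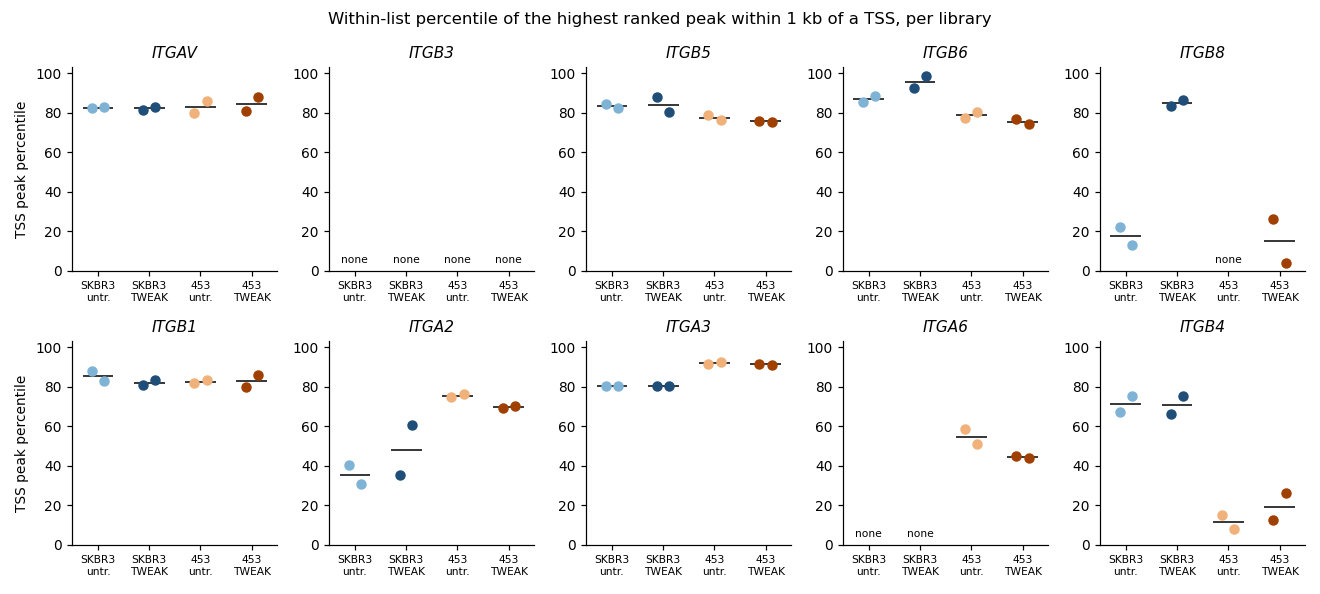
Percentile, in its own list, of the highest ranked peak within 1 kb of a TSS of each integrin gene, 1 point per library and the group mean as a line. "None" stands where no list of the group had such a peak. ITGB4 and ITGA6 separate the lines in opposite directions, ITGAV and ITGB1 overlap, and ITGB8 separates the SKBR3 TWEAK libraries, at 83.6 and 86.3, from the others, at most 26.2.

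Counted over the members, 7 of 10 had a TSS peak in all 8 lists, as did 50.5% of all protein-coding genes, and ITGB3, ITGB8 and ITGA6 did not. Among the 7, the percentile differed between lines in 5 (63.9% of the 9907 genes tested, 33.3% higher and 30.6% lower in SKBR3), with ITGB4, ITGB5 and ITGB6 higher in SKBR3 and ITGA2 and ITGA3 lower. The width of the TSS peak differed in 5 as well (52.2% of genes, 18.1% higher and 34.1% lower), again higher for ITGB4, ITGB5 and ITGB6 and lower for ITGAV and ITGA2. Neither measure was called with TWEAK for any of these 7 in either line. ITGB3, ITGB8 and ITGA6 were not in these fits and so were not tested. For all genes limma called 8 percentiles (0.0808%, of which 0.0505% higher and 0.0303% lower) and 108 widths (1.09%, 0.474% higher and 0.616% lower) in SKBR3, and 1 (0.0101%) and 2 (0.0202%) in MDA-MB-453. Among the 7 members, 1 percentile and 1 width, those of ITGB6 and ITGB5, had an unadjusted p under 0.05 in SKBR3 (0.0142 and 0.0163). By limma, 2 widths did in MDA-MB-453, those of ITGB4 (1.27 ± 0.23 in log2 width, adjusted p = 0.402) and ITGB6 (0.34 ± 0.10, adjusted p = 1.00).

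By presence in the lists, the SKBR3 lists merged to 89 regions in the windows, of which 3 were gained with TWEAK and 2 lost. Of all SKBR3 regions, 4.61% were gained and 1.4% lost. MDA-MB-453 had 63, of which 2 were gained and 1 lost, against 1.33% and 1.3% of all. Regions in the 4 lists of one line and in none of the other numbered 11 for SKBR3 (14.1% of all regions) and 9 for MDA-MB-453 (10.5%) among the 101. These shares lie near the backgrounds. Of the 9, 6 were at ITGA6, 2 at ITGB1 and 1 at ITGAV. Of the 11, 3 each were at ITGB4 and ITGB6, 2 at ITGB5, and 1 each at ITGAV, ITGB8 and ITGA3.

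Other genes of the pathway were followed by the same measure. Of 16 other integrin genes, 9 windows were higher and 2 lower in SKBR3, beside 46.7% and 26.6% of all windows, and the largest differences were at ITGAM (1.73 ± 0.25, adjusted p = 0.000482) and ITGAE (1.54 ± 0.11, adjusted p = 1.39e-05). Of these genes 12 had no TSS peak in any list, and ITGA5, the fibronectin receptor chain, had one in each of the 4 SKBR3 lists (percentiles 45.7 to 58.7) but none in the other line. Of 9 ligand genes tested 7 were higher and 1 lower, with TNC, tenascin C, lower in SKBR3 (-3.63 ± 0.18, adjusted p = 1.83e-06) and LAMA5, a laminin α chain, higher (1.91 ± 0.09, adjusted p = 1.93e-06). Of 14 adaptor and kinase genes 12 were higher and 1 lower, with SRC showing the largest difference (3.45 ± 0.11, adjusted p = 4.63e-07) and ZYX the next (0.77 ± 0.13, adjusted p = 0.00101). No window of these lists was called with TWEAK in SKBR3, and the lowest adjusted p among those 3 lists was that of ITGAM (1.86 ± 0.35, adjusted p = 0.0568). Their median SKBR3 differences were 0.13 for the other integrins, 0.26 for the ligands and 0.07 for the adaptors, beside 0.33 for the 10 members and 0.01 for all windows.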

How the data were processed

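H3K27ac ChIP-seq libraries of SKBR3 and MDA-MB-453 cells, 2 per group, were analysed from the peak list of each library, and the 2 inputs have no list of their own. The authors trimmed reads with Trimmomatic, mapped them with Bowtie2 to hg38, called peaks in each library with MACS2 against input and removed blacklisted regions. The deposited lists give a whole-number score, a fold enrichment ratio and, as −log10 values, a p-value and a q-value for each peak, and their layout is that of broad peaks. Calling options are not given in the sources used here. No reads were used, so depth is unknown, and the study's DiffBind comparison, which needs reads, was not run.

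The authors' score ranked peaks within their own list, with ties at the mean rank. Their fold enrichment and −log10 q were used in alternatives. Covered length was the sum of bases under peaks in a window. Windows with a peak in at least 1 list, TSS percentiles and log2 TSS widths were each fitted with limma (version 3.58.1, R 4.3.3, trend) as 4 group means over all genes, with Benjamini-Hochberg adjustment, and single windows also with two-sided exact permutation tests over libraries. Gained regions were in both TWEAK lists and neither untreated list of a line, lost ones the reverse, and peaks overlapping by 1 bp were merged. Genes came from GENCODE release 44.

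Members and lists were chosen with earlier results of these data known. All members are described; of each other list the 2 genes with the largest line difference are named, and for ITGAV the 3 genes nearest in TSS percentile. Of line-specific regions up to 4 per window are described, those of highest mean percentile. ITGA5 and the ITGAV region 45.3 kb before the gene were chosen after their values were seen. Of SPP1, a ligand, no window could be tested, since no list had a peak there. Tried as alternatives were only peaks of q under 1e-05 (the stricter threshold), the 36148 top peaks of each list, 50% overlap, merging within 1 kb, flanks of 0 and 100 kb, a pseudocount of 0.1 kb, no filter on windows, logit and fold-based percentiles, a TSS window of 2.5 kb, a replicate block and leaving out each library. Scaled lists, fits over single regions and base-level counts were added after the data were seen. One upstream sequence that the same rule would show is not reported here.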

Additional observations from a re-analysis of the deposited data

Results flagged for a closer look

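TWEAK moved both libraries one way in SKBR3 and both the other way in MDA-MB-453 for 3 values. How many of all windows and genes do the same was not counted, so whether 3 is many cannot be told. The covered length of the ITGB4 window was 3.73 kb lower on average in TWEAK-treated than in untreated SKBR3 cells (-3.73 kb) and 1.19 kb higher in MDA-MB-453. These lay in different places: the SAP30BP promoter region went from 5.20 and 8.09 to 3.2 and 4.56 kb in SKBR3, and the ITGB4 TSS region from 0.933 and 0.738 to 2.51 and 1.59 kb in MDA-MB-453, against 3.57 and 3.44 to 3.35 and 3.38 kb in SKBR3. That of the ITGA2 window was 1.93 kb higher in SKBR3 and differed by -1.60 kb in MDA-MB-453. The TSS peak of ITGB6 was 8.66 percentile points higher in SKBR3 and differed by -3.43 points in MDA-MB-453. The limma test of each difference between the lines did not pass: -0.29 ± 0.12 for ITGB4 (adjusted p = 0.574) and 0.68 ± 0.16 for ITGA2 (adjusted p = 0.264) on the log2(kb + 1) scale, and 12.1 ± 3.92 percentile points for ITGB6 (adjusted p = 0.681). For ITGA2 it passed without SKBR3 TWEAK replicate 1 (0.80 ± 0.11, adjusted p = 0.035).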

How the results depend on the processing

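Counts over the members stayed within 1.5 times the reported value in 227 of 267 combinations of a count and an alternative. Of single differences, 612 of 658 kept their call and, where called, their direction. Counts of none in both fits, and differences called in neither fit, are among those kept. Every difference with TWEAK in MDA-MB-453 was of this last kind, so these totals say little about the calls with TWEAK. With 2 libraries a group, no reads and no depth, a peak missing from a list may lie just under the caller's threshold.

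Under the stricter threshold 0 of 40 regions were gained and 2 lost in MDA-MB-453, beside 291 and 320 of all 25380. In SKBR3 0 of 43 were lost, beside 195 of all 28213, and 6 of 55 were SKBR3-specific, beside 4056 of all 36856. Between lines 5 of 10 windows differed, beside 11768 of all 17234. Of 5 members tested, 2 TSS percentiles and 3 TSS widths differed, beside 4773 and 4005 of all 7823. Lists of equal size gave 1 of 61 regions lost in SKBR3, beside 1132 of all 46211. They gave 14 of 81 specific to MDA-MB-453, beside 9154 of all 61880 regions. A 50% overlap gave 6 gained and 4 lost of 89 in SKBR3, beside 3426 and 1309 of all 62104. In MDA-MB-453 it gave 2 lost of 63, beside 876 of all 42831. Without flanks 1 of 42 regions was gained in MDA-MB-453, beside 570 of all 42831. In SKBR3 1 of 55 was lost, beside 868 of all 62104, and 5 of 67 were SKBR3-specific, beside 10747 of all 76044. There 1 window, ITGA6, was called with TWEAK in SKBR3, beside 257 of all 14914. With flanks of 100 kb, 5 regions were gained and 5 lost of 124 in SKBR3, beside 2865 and 868 of all 62104. With no filter on windows 1 was called with TWEAK in SKBR3 and 1, ITGB8, for the difference between the lines in the TWEAK response, as with the pseudocount of 0.1 kb (1). With no filter 187 and 74 of all 19618 windows were called for these contrasts. For the difference in response, the pseudocount of 0.1 kb gave 69 of all 18229. The exact permutation test, which cannot reach the threshold with 2 against 2, called 0 with TWEAK in SKBR3.

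Directions reversed for ITGAV between lines without flanks (-0.91), ITGB1 between lines (0.12) and ITGA6 with TWEAK in SKBR3 (0.51) under the stricter threshold, and ITGA3 between lines with scaled lists (-0.33). ITGB8, ITGAV and ITGA6 were called with TWEAK in SKBR3, in the reported direction, in 15, 8 and 3 of 16 alternatives. With no filter 187 windows in all were called with TWEAK in SKBR3, and under the stricter threshold 85 were called for the difference between the lines in response (0 in the reported fit). The cause was not tested.

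Leaving out single libraries, gained regions ranged from 3 to 11 in SKBR3 and 2 to 4 in MDA-MB-453, lost ones from 2 to 14 and 1 to 4, windows called with TWEAK in SKBR3 from 1 to 3 and for the difference between the lines in response from 0 to 3, and TSS percentiles and widths called with TWEAK in SKBR3 from 0 to 1 each. Without SKBR3 TWEAK replicate 1, 11 of 87 regions were gained beside 10679 of all 60535, and the 3 windows called for the difference in response stood beside 690 of all 18220. Without SKBR3 untreated replicate 2, 14 of 90 were lost beside 5879 of all 60402. In both, 1 list stood for its group.

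Same-numbered libraries deviated together in SKBR3 (r = 0.465 for covered length, across windows, and 0.304 for TSS percentile). They did not in MDA-MB-453 (r = -0.04 and 0.017). The labels do not say whether the numbers mark pairs, and the reported fits leave the shared deviation in SKBR3 out. With the replicate block, 2 windows, ITGAV (adjusted p = 0.0326) and ITGB8 (0.0326), were called with TWEAK in SKBR3, and ITGA6 was not (0.0517). Between lines ITGB8 lost its call (0.0621) and ITGA3 gained one (0.049). Calls with TWEAK in SKBR3 over all genes went from 315 to 423 for windows, from 8 to 0 for TSS percentiles and from 108 to 11 for TSS widths.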
